A study of Mus musculus with 30 samples.

Results

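Gene expression that goes with interleukin 10 (IL-10) was compared between 2 kinds of mouse Th17 culture, the non-pathogenic kind (Th17) and the pathogenic kind (pTh17). The quantity compared was a difference of differences, the change from IL-10 negative to IL-10 positive cells in Th17 minus the same change in pTh17. It rested on 12 of the 30 RNA-seq libraries of the study, chosen by their titles, with 3 libraries in each of 4 groups. All 4 groups came from C57BL/6 mice that carry 2 reporters, Foxp3-GFP and IL-10-Thy1.1. Naive GFP negative CD4 T cells were activated with soluble anti-CD3 at 2.5 ug/ml and with irradiated splenocytes, from which CD4 T cells had been removed, at 6 feeder cells per T cell. Th17 cultures received human TGF-beta 1 (2 ng/ml) with IL-6 (25 ng/ml), whereas pTh17 cultures received the same dose of IL-6 with IL-1 beta and IL-23, each at 20 ng/ml. When 72 h had passed, live GFP negative T cells were sorted by Thy1.1 into an IL-10 positive and an IL-10 negative compartment, and 2000 cells were lysed for each library. The sorting text of the labels gives the same Thy1.1 sign for both compartments, so the titles were followed. The replicates are numbered 10 to 12 in Th17 and 13 to 15 in pTh17. The labels give neither the age of the mice nor how many were used, and they do not say whether the libraries of a group came from separate mice or cultures. The p-values below are therefore set against the scatter among 3 libraries a group, and that scatter may be technical.

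IL-10 dampens immune responses, and helper T cells of several lineages secrete it. Th17 cells are defined by the cytokine IL-17. Cells driven by TGF-beta and IL-6 are known as weak inducers of autoimmune tissue damage and as frequent IL-10 producers, whereas IL-23 and IL-1 beta favour cells that cause such damage. The comparison asks whether the genes that go with IL-10 production are the same in both cultures.

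The 12 libraries held 5695832 to 9774881 expected counts each. In Th17 the positive compartment was sequenced deeper than the negative one (9410288 to 9774881 against 5695832 to 5915474), and in pTh17 the ranges overlapped. Levels are given as CPM, counts scaled to a common library total with TMM factors, and fold changes as log2 values with their standard errors from edgeR. Within each group the 3 libraries were close, with correlations of log2 CPM over genes from 0.978 to 0.988. Il10, at chr1:131019845-131024970 of GRCm38.p6, checked the sort. Its CPM was 0.983, 0.760 and 3.25 in the Th17 IL-10 negative libraries and 21.5, 24.1 and 24.8 in the positive ones, against 1.20, 0.781 and 0.353 (negative) and 53.7, 50.9 and 50.0 (positive) in pTh17. Every positive library was above every negative one in both cultures. The log2 increase was 3.80 ± 0.24 in Th17 and 6.03 ± 0.23 in pTh17, a difference of -2.23 ± 0.50 with an edgeR adjusted p of 0.000418. That difference rested on Th17 negative replicate 12, which had the most Il10 of the negative libraries. Without it the value was -1.28 with an adjusted p of 0.0959. Thy1 rose by 1.19 in Th17 and 0.75 in pTh17. Its counts are per gene and do not tell the Thy1.1 reporter from the cells' own Thy1.

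The IL-10 difference depended on the culture for a large share of genes. Of 12611 genes tested, 5449 (43.2%) had a difference of differences past an adjusted p of 0.05 in the quasi-likelihood test of edgeR, adjusted by Benjamini-Hochberg. For 2940 of them (23.3% of genes tested) the value was higher in Th17 and for 2509 (19.9%) it was lower, and 2110 differed by at least 2-fold. The balance of directions turned with the scaling, since with upper-quartile factors 2637 were higher and 2902 lower. Th17 carried most of this. The change in Th17 was the larger in size for 4839 of the 5449 genes and the change in pTh17 for 610. By themselves, the Th17 compartments differed in 7338 genes (58.2%, with 29.2% up and 28.9% down) and the pTh17 compartments in 2327 (18.5%, with 10.1% up and 8.33% down). These shares of all genes are the background for each count of list members below. Positive and negative libraries were fully separate for 62.4% of genes in Th17 and for 32.7% in pTh17, which is the background for each statement on overlap below. The Th17 negative libraries were also the shallowest, and with all 12 libraries thinned to one total 5113 genes differed between the cultures.

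The 5449 genes fell into classes by the calls within each culture. In opposite directions moved 365 genes, of which 188 (1.49% of genes tested) rose in Th17 and fell in pTh17, and 177 (1.40%) fell in Th17 and rose in pTh17. A change was called in Th17 only for 2023 genes that rose (16%) and 1738 that fell (13.8%). With upper-quartile factors these were 1753 and 2050. A change was called in pTh17 only for 172 genes that rose (1.36%) and 143 that fell (1.13%). A missing call is not evidence of no change, so the 95% interval in the other culture was read as well. It lay within 1.5-fold for 1658 of the 2023 and 1219 of the 1738 Th17 genes, and for 80 of the 172 and 125 of the 143 pTh17 genes. A further 488 genes (3.87%) rose and 318 (2.52%) fell in both cultures by unequal amounts, and 202 (1.60%) passed in neither culture alone. In all, 1354 genes were called in both cultures with the same sign, and for 548 of these the difference between cultures did not pass.

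**Figure D1:**
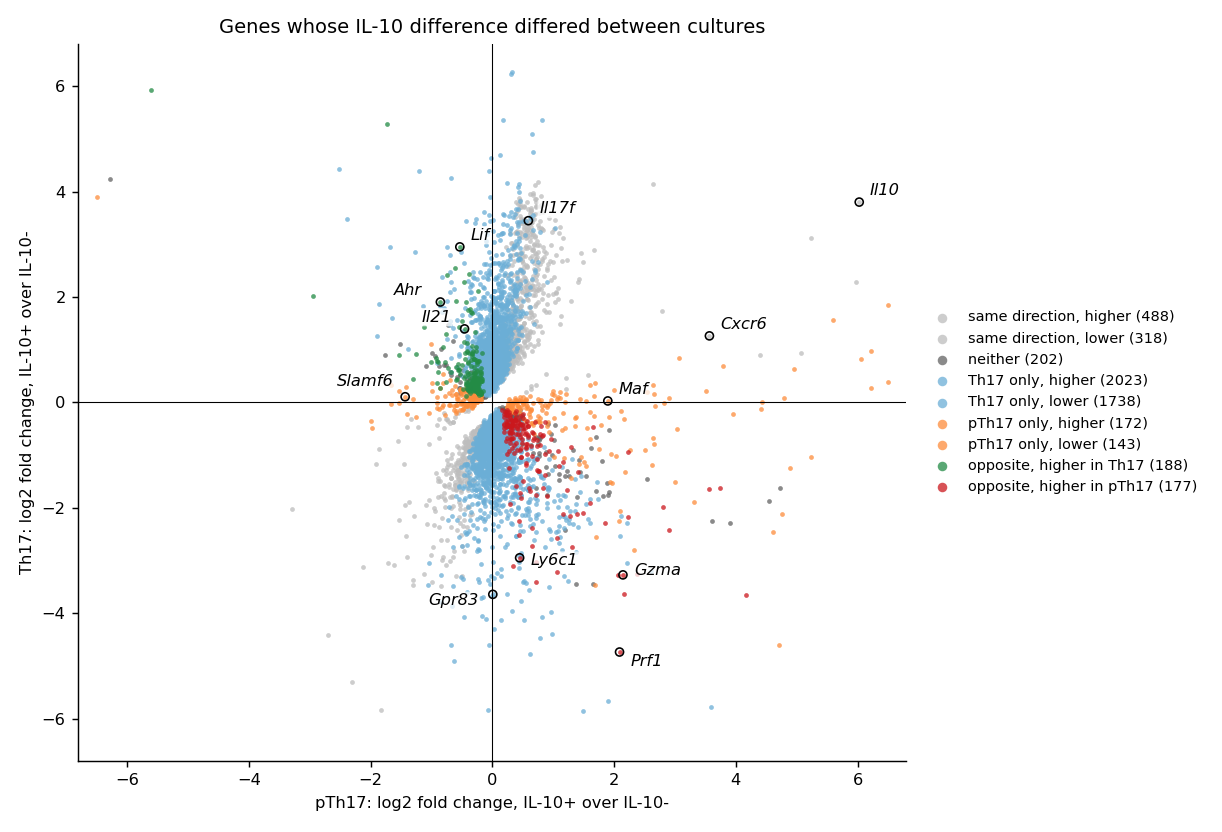
Each point is 1 of the 5449 genes whose IL-10 difference differed between cultures, with its log2 fold change of IL-10 positive over negative libraries in pTh17 on the x axis and in Th17 on the y axis. For 4839 of the 5449 genes the change was larger in size on the y axis than on the x axis, and 3 genes past 6.5 on either axis are drawn at the edge.

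Genes that rose with IL-10 in Th17 and fell with it in pTh17 included 2 cytokine genes and a ligand-activated transcription factor. Of the 188, 174 did not overlap between compartments in either culture, as did 161 of the 177 of the reverse pattern. Genes named for the size of their difference had to meet this condition, so for them it is no further support. Lif (chr11:4257568-4272514) encodes a cytokine of the IL-6 family. Its CPM was 19.7, 19.3 and 14.5 in Th17 IL-10 negative and 141, 140.0 and 132 in positive libraries, against 129, 117 and 129 (negative) and 82.3, 89.6 and 87.4 (positive) in pTh17. Levels in Th17 positive and pTh17 negative libraries lay close together, those in Th17 negative libraries lay far below, and no compartments overlapped within a culture. The log2 change was 2.95 ± 0.12 in Th17 and -0.53 ± 0.10 in pTh17, and the 2 changes differed by 3.48 ± 0.16 with an edgeR adjusted p of 3.58e-20. Il21 (chr3:37222759-37232636), a cytokine that acts on T and B cells, had 152, 140.0 and 143 CPM in Th17 negative and 372, 397 and 375 in Th17 positive libraries, and 385, 343 and 336 (negative) and 262, 254 and 260.1 (positive) in pTh17. The pattern matched that of Lif, with no overlap, and the changes of 1.39 ± 0.08 and -0.46 ± 0.08 differed by 1.85 ± 0.11 (adjusted p 2.57e-16).

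Ahr (chr12:35497979-35534989) encodes the aryl hydrocarbon receptor, a sensor of small molecules that is known to act with Maf on Il10. Its CPM was 18.2, 21.7 and 25.8 in Th17 negative and 78.2, 86.1 and 82.3 in Th17 positive libraries. In pTh17 it was 9.39, 9.37 and 8.47 (negative) and 4.40, 6.42 and 4.28 (positive). The compartments overlapped in neither culture, and the lowest levels were in the pTh17 positive libraries. Ahr rose by 1.90 ± 0.17 in Th17 and fell in pTh17, with a change of -0.85 ± 0.24 (edgeR adjusted p 0.01), and these differed by 2.76 ± 0.30 (adjusted p 8.05e-10). Of 6 tested genes of the Ahr list, 4 had a higher value in Th17 than in pTh17 and 0 a lower one, with a median difference of 1.59 beside -0.02 for all genes. The targets Cyp1a1, Ahrr, Tiparp and Cyp1b1 rose in Th17 without a call in pTh17, and Nqo1 passed in neither. Cyp1a1, a detoxifying enzyme, changed by 2.48 ± 0.14 in Th17 and -0.21 ± 0.28 in pTh17, where its CPM was 2.89, 2.21 and 2.71 (negative) and 2.02, 2.23 and 2.57 (positive) against 100.4, 87.8 and 99.6 in Th17 positive libraries. Ahrr, the receptor's repressor, differed by 1.95 ± 0.35 and Tiparp, another target, by 0.56 ± 0.13.

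The other named genes of this class were Crabp2 (retinoic acid binding), Bcl2l14 (BCL2 family), Prelid2, Angptl2 (a secreted angiopoietin-like protein), Gypc (a membrane skeleton glycoprotein) and Tnfsf14 (the ligand LIGHT). Their differences of differences ran from 2.52 for Tnfsf14 to 3.17 for Crabp2. Gypc rose from 20.5, 17 and 15 to 44.8, 48.7 and 47 CPM in Th17 and fell from 28.3, 25.1 and 23.3 to 9.76, 13.5 and 12.1 in pTh17. Angptl2 had 24.4, 23.6 and 19.6 (negative) and 103, 122 and 103 (positive) CPM in Th17, and 37.2, 35.1 and 40.7 (negative) and 27.1, 25.1 and 29.9 (positive) in pTh17. Crabp2, Bcl2l14, Prelid2 and Tnfsf14 stayed lower in Th17 positive than in pTh17 positive libraries. Crabp2, for example, reached 4.76, 5.79 and 5.33 CPM in Th17 positive libraries and was 14.3, 11.3 and 15.8 in pTh17 positive ones.

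Of 17 tested co-inhibitory receptors and their partners, 2 moved in opposite directions, Nt5e and Cd200. Nt5e encodes CD73, the ectoenzyme that makes adenosine. Its CPM was 258, 237 and 268 in Th17 negative and 362, 323 and 352 in Th17 positive libraries, against 9.75, 7.03 and 6.94 (negative) and 2.14, 4.89 and 2.71 (positive) in pTh17. Th17 libraries were thus all far above pTh17 libraries, and the compartments overlapped in neither culture. The 2 changes, 0.44 ± 0.11 and -1.31 ± 0.25, differed by 1.75 ± 0.27 (adjusted p 1.44e-06). Cd200, the ligand of an inhibitory receptor of myeloid cells, rose by 0.71 in Th17 and fell in pTh17 (-0.50 ± 0.08). In the list of 17, 6 had a higher difference in Th17 and 1 a lower one, a share near the 43.2% of all genes. The lower one was Cd274 (PD-L1), which changed by -1.69 ± 0.17 in Th17 and 0.24 ± 0.12 in pTh17. The list's median was 0.26. Tnfrsf9, an activation-induced costimulatory receptor, rose in both cultures, by 1.81 and 0.62. Bach2, a repressor that keeps T cells from effector differentiation, rose from 316, 295 and 288 to 394, 377 and 402 CPM in Th17 and fell from 133, 148 and 153 to 87, 87.2 and 82.7 in pTh17, without overlap, and its changes differed by 1.14 ± 0.09.

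**Figure D2:**
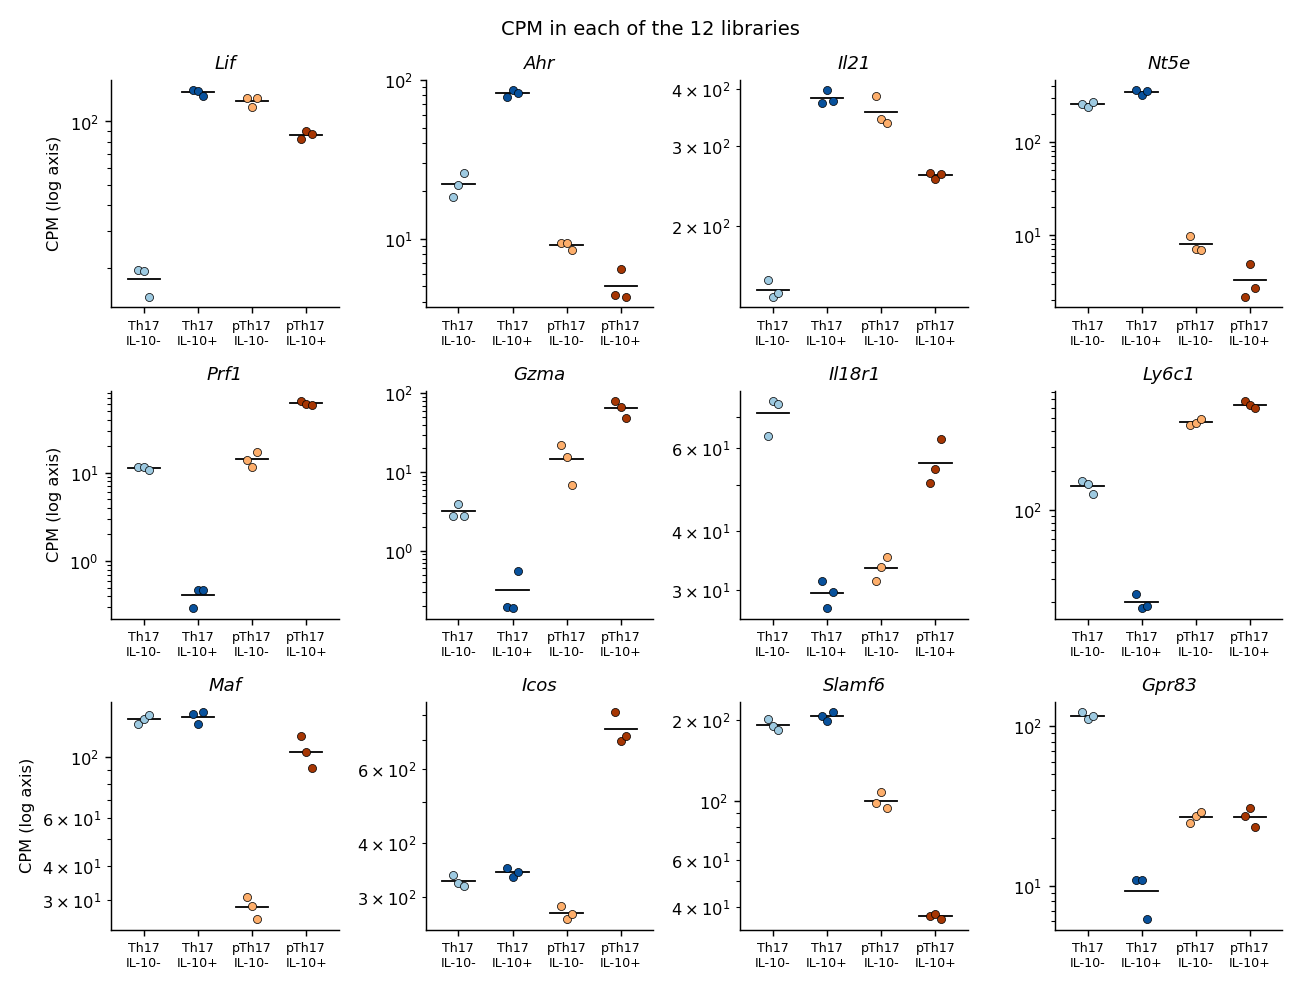
CPM on a log axis in each of the 12 libraries (points, 3 a group) with the group mean (bar) for 12 genes. Lif, Ahr, Il21 and Nt5e rise in Th17 and fall in pTh17, Prf1, Gzma, Il18r1 and Ly6c1 do the reverse, Maf, Icos and Slamf6 move in pTh17, and Gpr83 moves in Th17.

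The reverse pattern, lower with IL-10 in Th17 and higher in pTh17, was largest for Prf1 among the named genes. Prf1 (chr10:61297751-61304684) encodes perforin, which forms pores in target cells. Its CPM was 11.5, 11.7 and 10.8 in Th17 negative and 0.291, 0.467 and 0.468 in Th17 positive libraries, against 14.1, 11.7 and 17.3 (negative) and 64.6, 60.4 and 59 (positive) in pTh17. The positive libraries lay below the negative ones in Th17 and above them in pTh17. Prf1 changed by -4.74 ± 0.25 in Th17 and 2.09 ± 0.11 in pTh17, and the difference of -6.83 ± 0.26 had an edgeR adjusted p of 5.44e-22. Gzma (chr13:113093824-113100981), a granule protease, had 2.79, 3.95 and 2.78 CPM in Th17 negative and 0.194, 0.187 and 0.561 in Th17 positive libraries, and 22.2, 15.4 and 6.82 (negative) and 79.5, 67.3 and 48.2 (positive) in pTh17. Its changes differed by -5.42 ± 0.68 (edgeR adjusted p 2.74e-08). Klrk1, the activating receptor NKG2D, differed by -5.20 ± 0.95 at no more than 3.21 CPM in any library. The 9 NK cell markers, Klrk1 among them, summed to 9.83 to 12.6 CPM in pTh17 positive and 0.651 to 2.12 in pTh17 negative libraries, and to 11.8 to 15.8 and 6.54 to 7.86 in Th17. Of 6 NK cell markers tested, 4 rose in pTh17 and 0 fell, and 2 rose and 1 fell in Th17. Klra8 was at 0 in all 12 libraries, and Ncr1 had 8 counts in all. The part of NK cells in the values of Prf1 and Gzma was not tested.

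The cytotoxic list as a whole did not share this pattern. Of its 14 tested genes, 2 had a higher difference in Th17 and 4 a lower one, a share near the 43.2% of all genes, with a median of -0.71. In pTh17, 8 rose and 0 fell, and in Th17, 4 rose and 5 fell. Cst7, an inhibitor of granule cathepsins, rose from 37.5, 30.3 and 29.4 to 138, 114 and 129 CPM in Th17 and was 362, 332 and 333 (negative) and 398, 366 and 354 (positive) in pTh17. Srgn, the granule proteoglycan, rose in both cultures, by 1.13 in Th17 and 0.26 in pTh17. Serpinb9, an inhibitor of granzyme B, fell in Th17 (-2.24 ± 0.24) and had a change of -0.13 ± 0.17 in pTh17.

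Receptors for IL-18 were part of the same class. Il18r1 had 63.6, 75.6 and 74.4 CPM in Th17 negative and 31.3, 27.4 and 29.6 in Th17 positive libraries, and 31.3, 33.5 and 35.2 (negative) and 50.6, 54.2 and 62.7 (positive) in pTh17. The high groups were Th17 negative and pTh17 positive, and the compartments overlapped in neither culture. Its changes of -1.27 ± 0.09 and 0.74 ± 0.10 differed by -2.02 ± 0.13 (adjusted p 2.66e-15). The partner chain Il18rap differed by -2.14 ± 0.37. Of 11 tested genes of the IL-1 receptor family and its signalling proteins, 0 had a higher difference in Th17 and 5 a lower one, with a median of -0.42. The share called was near the 43.2% of all genes, of which 23.3% were higher and 19.9% lower. Il1r1, the receptor of IL-1, rose in both, by 0.45 ± 0.14 in Th17 and 1.20 ± 0.17 in pTh17. Il27ra, the receptor chain for IL-27, changed by -0.59 ± 0.06 in Th17 and 0.29 ± 0.07 in pTh17.

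Ly6c1, a surface marker of memory and effector cells, fell from 167, 159 and 133 to 23.1, 17.8 and 18.6 CPM in Th17 and rose from 444, 462 and 492 to 676, 628 and 603 in pTh17. Its changes differed by -3.40 ± 0.14. The neighbouring gene Ly6c2 differed by -4.14 ± 0.78 with at most 15.1 CPM, and reads could be shared between these near-identical paralogs. Kcnj8, a potassium channel subunit, fell from 15.7, 11.9 and 13.3 to 1.65, 1.12 and 1.59 CPM in Th17 and rose from 9.51, 9.50 and 14.1 to 23.9, 19 and 26.5 in pTh17. Moxd1, a monooxygenase, differed by -4.13 ± 0.37, Igf2bp2, an RNA binding protein, by -5.80 ± 1.19, and Rufy4 by -5.34 ± 0.77. Isg20, an RNA exonuclease induced by interferon, differed by -3.63 ± 0.53. Cd79a, a chain of the B cell receptor, differed by -5.36 ± 0.83 and is counted below among the B cell markers.

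Some genes that rose with IL-10 in pTh17 could not be compared, because they were close to silent in Th17. In all, 31 genes were called in pTh17 while the 6 Th17 libraries together held at most 3 counts. All 31 rose, and 2 of them passed in the difference of differences. A ratio on so few counts says nothing about the direction in Th17. Ifng, the Th1 cytokine, had 0.722, 0.781 and 0.588 CPM in pTh17 negative and 14.6, 15.4 and 10.4 in pTh17 positive libraries and 0 counts in every Th17 library. Il22, a cytokine that acts on epithelia, had 26.1, 18.6 and 27.9 (negative) and 62.1, 63.8 and 69.8 (positive) CPM in pTh17 and 2 counts over the 6 Th17 libraries. Ccl3, Havcr2 (TIM-3) and Gzmc rose in pTh17, by 2.85, 4.70 and 2.70 on the log2 scale, with 3 counts each in Th17. Gzmb (granzyme B) rose from 335, 349 and 358 to 1505, 1329 and 1315 CPM in pTh17, whereas no Th17 library passed 0.328 CPM. The reverse held for Ccl20, the ligand of CCR6, which had 2.95, 3.34 and 0.619 CPM in Th17 negative and 45.8, 36.3 and 37 in Th17 positive libraries and 1 count over the 6 pTh17 libraries.

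Genes that rose with IL-10 in pTh17 only included regulators and costimulators of T cells. Maf (chr8:115703253-115706894) encodes c-Maf, a transcription factor that binds the Il10 locus. Its CPM was 133, 138 and 143 in Th17 negative and 144, 132 and 146 in Th17 positive libraries, against 30.8, 28.5 and 25.4 (negative) and 119, 104 and 91.2 (positive) in pTh17. Both Th17 groups were high and overlapped, pTh17 positive libraries lay below them, and pTh17 negative libraries were the lowest. The change was 0.03 ± 0.10 in Th17 and 1.90 ± 0.11 in pTh17, with a difference of -1.87 ± 0.15 (edgeR adjusted p 2.12e-13). Icos, a costimulatory receptor, had 338, 323 and 318 (negative) and 349.6, 334 and 342 (positive) CPM in Th17, and 285, 265 and 273 (negative) and 813, 696 and 717 (positive) in pTh17. There the pTh17 positive libraries stood alone above the other 9, and the changes differed by -1.37 ± 0.08 (adjusted p 1.97e-16). Prdm1, the gene of the repressor Blimp-1, rose from 15.5, 17.8 and 14.6 to 67, 55.8 and 58.4 CPM in pTh17. In Th17 no library passed 1.98 CPM, and the difference of -2.19 ± 0.63 was lost without Th17 negative replicate 11 (-1.15, adjusted p 0.324). Csf1, a macrophage growth factor, changed by 2.83 ± 0.19 in pTh17 and -0.01 ± 0.35 in Th17. Odc1, the first enzyme of polyamine synthesis, changed by 1.21 ± 0.11 and 0.15 ± 0.10.

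The 8 named genes with the largest differences in this class include several that are known from B cells and dendritic cells. Among them were Ccl22, Il4i1, Blnk, Chi3l1, Fcgr2b, Flt3 and Cd83. Il4i1, a secreted amino acid oxidase, rose from 0.241, 0.130 and 1.18 to 16.9, 23.7 and 21.2 CPM, and Ccl22, a chemokine of activated antigen-presenting cells, from 0.120, 1.43 and 0 to 13, 13.7 and 13.1. Ccl22 was at 0 in all Th17 positive libraries, so no difference of folds is given. For the other 5 of these the difference rested on few counts in Th17. Without Th17 negative replicate 11 the adjusted p in edgeR was 0.351 for Blnk (-3.39), 0.177 for Fcgr2b (-4.38) and 0.112 for Flt3 (-4.34). Without Th17 negative replicate 12 it was 0.399 for Chi3l1 (-3.45), 0.0849 for Cd83 (-3.43) and 0.114 for Flt3.

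Summed markers of B cells, myeloid cells and NK cells were higher in pTh17 positive than in pTh17 negative libraries. Those of NK cells, given above, were also higher in Th17 positive than in Th17 negative libraries. The 2 CD8 T cell markers summed to 19.6 to 22.5 CPM in pTh17 positive and 21.6 to 24.6 in pTh17 negative libraries, with 0 called in pTh17. Of gamma delta T cell markers and of erythroid and platelet markers 1 each was tested, and 0 were called in pTh17. The 13 B cell markers in the files summed to 48.3, 69.8 and 78.2 CPM in pTh17 positive libraries, against 6.47 to 8.98 in pTh17 negative, 5.08 to 11.6 in Th17 negative and 3.20 to 5.42 in Th17 positive ones. Of 10 tested, 7 rose in pTh17 and 0 fell, 8 had a lower difference in Th17 than in pTh17, and the median difference was -4.45. These differences rested on few counts in Th17. The count of 8 was 5 without Th17 negative replicate 11 and 6 without Th17 negative replicate 12, with medians of -3.84 and -4.13. The 16 myeloid markers summed to 28.4 to 36.3 CPM in pTh17 positive libraries, against 12.6 to 15.9 in pTh17 negative and 2.33 to 8.21 in Th17 libraries. MHC class II genes, which B cells and dendritic cells express, summed to 313.8 to 366.7 CPM in pTh17 positive and 235.7 to 247.9 in pTh17 negative libraries, against 53.99 to 60.5 in Th17. Gene by gene this list did not share the pattern of the B cell markers. Of 10 tested, 6 rose and 2 fell in pTh17 (median 0.84), and 7 rose and 1 fell in Th17 (median 1.78). The difference was higher in Th17 for 3 and lower for 3, with a median of -0.20. No B cell marker was at 0 in either pTh17 compartment, Fcrla was at 0 in Th17 negative libraries, and Pax5 and Fcrla were at 0 in Th17 positive ones. Of the 16 myeloid markers, 0 were at 0 in pTh17 positive, 4 in pTh17 negative, 9 in Th17 negative and 6 in Th17 positive libraries. The 4 T cell genes tested (Cd3e, Cd3d, Cd4 and Cd5) summed to 2009 to 2524 CPM in all 12 libraries. The part of these cells in the results for pTh17 was not tested.

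**Figure D3:**
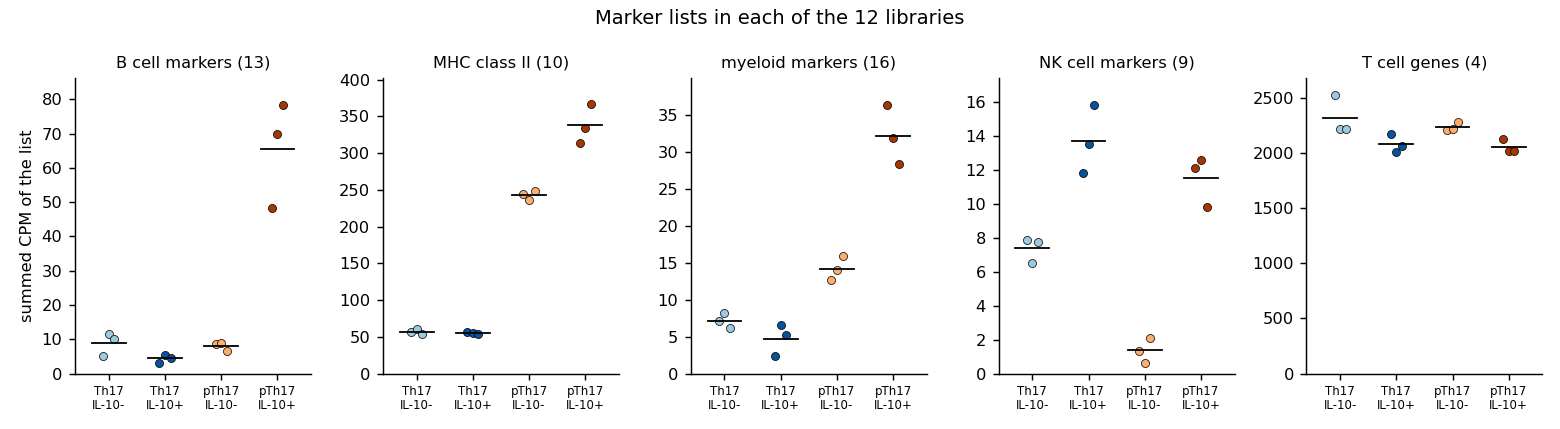
Summed CPM of 4 marker lists and of 4 T cell genes in each of the 12 libraries (points) with the group mean (bar), with the number of genes in brackets. B cell markers sum to 48.3 to 78.2 CPM in the positive pTh17 libraries and to at most 11.6 in the other 9, while the T cell genes stay between 2009 and 2524.

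Genes that fell with IL-10 in pTh17 only were fewer and moved less, with 19 of the 143 past 2-fold. Without pTh17 negative replicate 15 the class held 93 genes. Slamf6 (chr1:171917458-171948958), a receptor of less differentiated T cells, had 202, 191 and 185 (negative) and 208, 199.5 and 214 (positive) CPM in Th17, and 98.3, 108 and 94 (negative) and 37.1, 37.8 and 36.1 (positive) in pTh17. The Th17 groups overlapped, and the pTh17 positive libraries were the lowest 3 of 12. Its change was -1.43 ± 0.07 in pTh17 and 0.11 ± 0.06 in Th17, with a difference of 1.54 ± 0.10 (edgeR adjusted p 3.02e-16). Aff3, a nuclear protein of the AFF family, fell from 47.6, 58.6 and 47.4 to 14.9, 18 and 20.5 CPM in pTh17, and Pdlim1, a cytoskeletal adaptor, from 68.2, 71.1 and 77.4 to 20.8, 24.4 and 29.8. In Th17, Aff3 changed by -0.01 ± 0.10 and Pdlim1 by 0.21 ± 0.11. Sntb1, Gucy1a3, Sgpp2 and Ccdc64 differed by 1.37 to 2.00. Prkar1b differed by 2.10 ± 0.68, with a call that was lost at the thinned depth (adjusted p 0.0518). Cxcr3, a chemokine receptor of Th1 cells, fell in pTh17 from 45.9, 41.9 and 49.6 to 24.3, 21.4 and 27.5 CPM, and in Th17 no library passed 2.46.

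The known regulators of Il10 thus split between the cultures. Of 14 tested, 7 had a higher difference in Th17 and 4 a lower one. In Th17, Irf4 rose from 281, 259 and 277 to 877, 871 and 867 CPM, and in pTh17 it was 546, 522 and 534 (negative) and 513, 490.1 and 548 (positive). Th17 negative libraries were the lowest for this factor of antigen receptor signalling, Th17 positive ones the highest, and the pTh17 compartments overlapped. Its partner Batf and the repressor Bhlhe40 followed, with changes in Th17 of 1.07 ± 0.10 and 1.91 ± 0.10 and in pTh17 of 0.10 ± 0.09 and 0.04 ± 0.08. Nfil3 and Id2 rose in both cultures, Nfil3 more in Th17 (1.95 against 0.59) and Id2 more in pTh17 (1.20 against 0.25). Egr2 fell by less in Th17 (-0.31 ± 0.10) than in pTh17 (-0.74 ± 0.10), and Ikzf1 by more (-0.60 ± 0.06 against -0.17 ± 0.06). Stat3, Egr3 and Ikzf3 did not pass, with differences of -0.02, -0.72 and 0.10.

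Genes of the cell cycle rose with IL-10 in both cultures and far more in Th17. Of 26 tested genes of mitosis and G2/M, all 26 rose in Th17 and all 26 in pTh17, with median log2 changes of 3.48 and 0.48, and all 26 differed between cultures (median 2.94). Of 26 genes of DNA replication and S phase, all 26 rose in Th17 (median 2.71) and 22 in pTh17 (0.50), and all 26 differed (2.09). Top2a, the topoisomerase that untangles chromosomes, had 86, 71.2 and 72.7 CPM in Th17 negative and 769.8, 694 and 675 in Th17 positive libraries, and 399, 363 and 385 (negative) and 503, 478 and 505 (positive) in pTh17. The Th17 negative libraries were the low group, the Th17 positive ones the high group, and both pTh17 groups lay between without overlap. Its changes of 3.22 ± 0.09 and 0.37 ± 0.08 differed by 2.85 ± 0.12 (edgeR adjusted p 3.90e-21). Ube2c, which marks mitotic proteins for destruction, differed by 3.02 ± 0.13, Ccna2 (cyclin A2) by 3.09 ± 0.11, Rrm2, a subunit of ribonucleotide reductase, by 3.01 ± 0.14, and Mcm3, a part of the replicative helicase, by 2.41 ± 0.11. Among IL-10 negative cells the mitosis list was lower in Th17 than in pTh17 for all 26 genes (median -2.73). Among IL-10 positive cells it was higher in Th17 for 12 and lower for 3 (median 0.22). Of the 26 S phase genes, 24 were lower in Th17 among negative cells (median -1.23) and 24 were higher in Th17 among positive cells (median 0.76), so these genes differed in both compartments. With all libraries thinned to one total, all 26 genes of either list still differed, with medians of 2.91 and 2.09. In bulk libraries, fewer dividing cells and less of these transcripts per cell cannot be told apart.

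Of the named genes that rose in Th17 only, 5 belong to the same processes. They were Hist1h2ab and Hist2h3b (histones), Fancd2 (DNA repair), and Cenpm and Kntc1 (kinetochore). Fancd2 had 0.819, 2.13 and 1.39 CPM in Th17 negative and 25.2, 23.8 and 21.5 in Th17 positive libraries, and 16.6, 12.2 and 14.1 (negative) and 22, 17.4 and 19 (positive) in pTh17. The 2 histone genes belong to families of near-identical copies, between which the read assignment is uncertain. Gja3, a connexin, rose from 3.28, 3.04 and 2.78 to 20.3, 23.1 and 22.8 CPM in Th17 and stayed below 1 CPM in every pTh17 library. P4ha2, a collagen prolyl hydroxylase, rose from 0.491, 0.608 and 0.309 to 3.98, 7.29 and 4.77 and was 34.1, 43 and 39.4 (negative) and 36.5, 42 and 38.2 (positive) in pTh17. Tmem254c had 4.10, 0.152 and 0 (negative) and 15, 24.9 and 6.36 (positive) CPM in Th17, and 9.15, 0 and 0 (negative) and 0, 1.81 and 0 (positive) in pTh17. Its difference turned from 5.87 ± 2.29 to -1.75 without pTh17 negative replicate 13.

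Promoters of many cell cycle genes carry known elements, and 2 are shown. They belong to the mitosis genes with the smallest edgeR p of the difference among those whose promoters hold both elements below. The elements are thus present by selection, and the 2 do not stand for the list. Shown are the 250 bases before the annotated start, 5′ to 3′ on the gene's strand, from RefSeq (GRCm38.p6). Capitals mark the CHR element, searched as TTTGAA, and the CCAAT box, searched as CCAAT, each on both strands. Top2a lies at chr11:99024190-99024439 on the minus strand and Ube2c at chr2:164769679-164769928 on the plus strand.
Top2a: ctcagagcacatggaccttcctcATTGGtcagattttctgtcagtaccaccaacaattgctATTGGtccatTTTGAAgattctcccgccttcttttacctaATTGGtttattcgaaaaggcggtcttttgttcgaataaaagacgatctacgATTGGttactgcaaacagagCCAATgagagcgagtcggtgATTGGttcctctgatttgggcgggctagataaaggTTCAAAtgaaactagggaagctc
Ube2c: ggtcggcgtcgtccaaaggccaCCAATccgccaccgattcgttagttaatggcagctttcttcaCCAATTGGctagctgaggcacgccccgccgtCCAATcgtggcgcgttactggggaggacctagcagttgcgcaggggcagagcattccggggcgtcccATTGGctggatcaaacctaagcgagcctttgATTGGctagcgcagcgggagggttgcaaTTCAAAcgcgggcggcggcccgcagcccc
A CCAAT box stood in 19 of the 22 mitosis promoters with a sequence (86.4%) and a CHR element in 8 (36.4%), against 37.2% and 10.9% of the 9365 promoters of tested genes. The E2F element, searched as GCGGGAA on both strands, stood in 7 of 20 S phase promoters (35%) and in 6.88% of all. Such matches are letters in a window and describe these promoters only.

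Metabolic genes rose with IL-10 in Th17 and for the most part had no call in pTh17. Of 17 tested genes of glycolysis, 16 rose in Th17 (median of the list 1.51), and in pTh17 1 rose and 3 fell (median 0.05). Tpi1, triosephosphate isomerase, had 287, 227 and 236 CPM in Th17 negative and 1425, 1479 and 1377 in Th17 positive libraries, and 1579, 1599.5 and 1632 (negative) and 1548, 1519.5 and 1541 (positive) in pTh17. The Th17 negative libraries were far below all others, and the Th17 positive ones lay slightly below every pTh17 library. The changes of 2.51 ± 0.07 and -0.06 ± 0.07 differed by 2.57 ± 0.10 (edgeR adjusted p 1.14e-21). Hk2, the inducible hexokinase, differed by 3.05 ± 0.17, Slc16a3, a lactate exporter, by 2.51 ± 0.09, and Gapdh by 1.49 ± 0.07. Gpi1, Pfkp and Pdk1 moved in opposite directions, with changes in pTh17 of -0.22, -0.28 and -0.18. Among IL-10 negative cells all 17 genes were lower in Th17 than in pTh17, with a median of -1.92. Among IL-10 positive cells 13 were still lower in Th17 and 2 were higher, with a median of -0.66.

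Of 17 genes of ribosome biogenesis and Myc, 16 rose in Th17 and 1 in pTh17, and the 1, Odc1, was the exception described above. Npm1, nucleophosmin, had 573, 519 and 527 (negative) and 1336, 1362 and 1330.5 (positive) CPM in Th17, and 1749.9, 1507 and 1619 (negative) and 1641, 1538 and 1548 (positive) in pTh17. The pTh17 compartments overlapped, and the difference was 1.36 ± 0.08. Of 21 genes of cholesterol synthesis, 18 rose in Th17 (median 0.92) and 4 in pTh17 (0.08), and 18 differed. Cyp51, a sterol demethylase, rose from 52.3, 48.8 and 52.9 to 149, 155 and 141 CPM in Th17 and was 335, 315 and 334 (negative) and 359, 326 and 331 (positive) in pTh17. All 21 genes of this list were lower in Th17 than in pTh17 among IL-10 negative cells, and 20 were still lower among IL-10 positive cells.

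**Figure D4:**
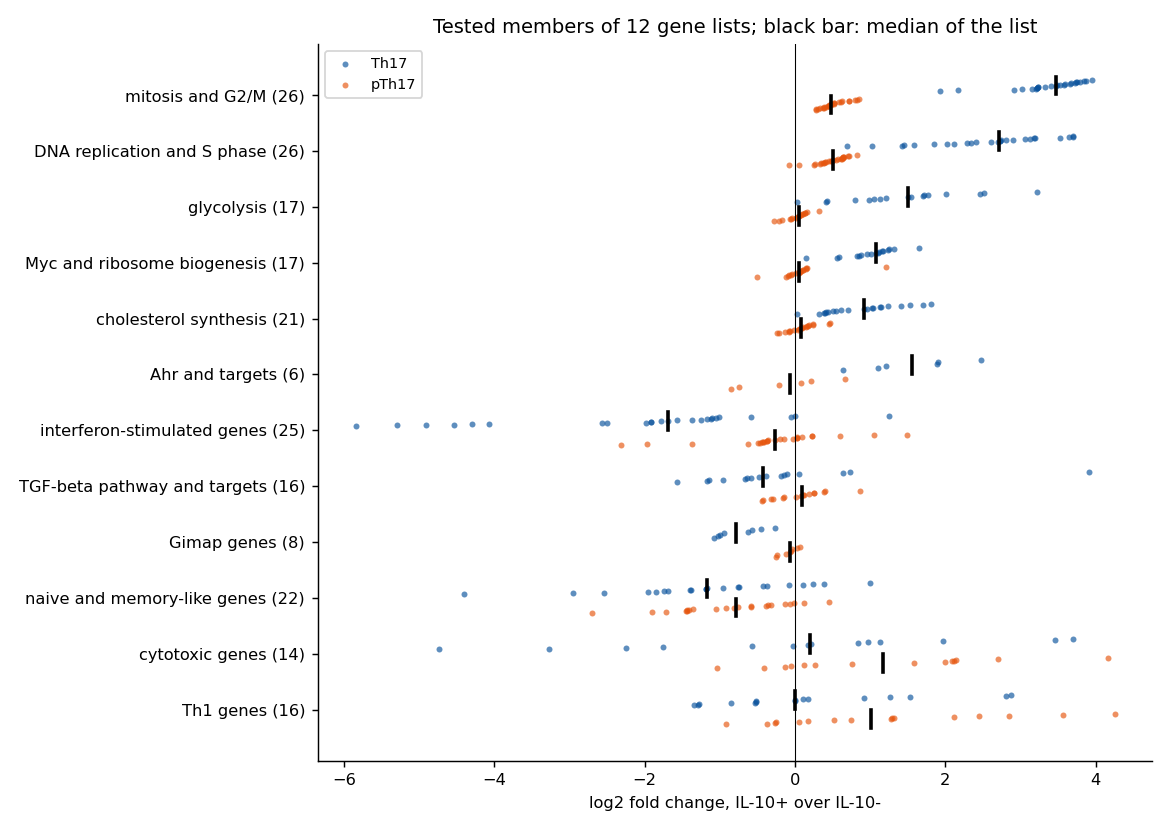
Log2 fold change of IL-10 positive over negative libraries for each tested gene (point) of 12 lists in Th17 (blue) and pTh17 (orange), with the list median (bar) and the number of genes in brackets. Mitosis genes have medians of 3.48 in Th17 and 0.48 in pTh17, and interferon-stimulated genes -1.69 and -0.27. Ifng, without counts in Th17, is drawn at 0 there.

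Most of the Th17 lineage genes rose with IL-10 in Th17, and fewer did in pTh17. Of 17 tested, 15 rose and 1 fell in Th17, 10 rose and 2 fell in pTh17 (Il21, as above, and Stat3), and 8 had a higher and 1 a lower difference (median 0.90). Il17a, the lineage cytokine, had 10.3, 4.87 and 11.1 CPM in Th17 negative and 85.7, 102 and 85.3 in Th17 positive libraries, and 118, 92.4 and 103 (negative) and 117, 144 and 157 (positive) in pTh17. Th17 negative libraries lay far below the other 9, and the pTh17 compartments overlapped. It rose by 3.38 ± 0.17 in Th17 and 0.41 ± 0.13 in pTh17, a difference of 2.97 ± 0.22 (edgeR adjusted p 6.04e-13), and Il17f differed by 2.86 ± 0.12. Il23r, the receptor that responds to IL-23, changed by 2.90 ± 0.20 in Th17 and 0.25 ± 0.17 in pTh17. Rora, a nuclear receptor of the lineage, rose from 32.9, 24 and 25.4 to 78.3, 81.3 and 76.5 CPM in Th17 and was 11.9, 12.1 and 13.5 (negative) and 10.8, 12.6 and 13.5 (positive) in pTh17.

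Among receptors and feedback genes of IL-6, IL-12 and IL-23, 7 of 20 had a higher and 10 a lower difference. Il12rb1, a shared chain of the IL-12 and IL-23 receptors, rose by 2.40 ± 0.08 in Th17 and 0.40 ± 0.07 in pTh17. Socs3, a feedback inhibitor of IL-6 and IL-23 signals, fell from 552, 587 and 563 to 135, 126 and 133 CPM in Th17 and from 261, 316 and 301 to 235, 243 and 221 in pTh17. It fell in both cultures without overlap, and the changes differed by -1.79 ± 0.11. Cish, a feedback inhibitor induced by IL-2, rose in Th17 (2.21 ± 0.09) and had a change of 0.19 ± 0.07 in pTh17. Il2ra, the high-affinity chain of the IL-2 receptor, rose in both, by 2.31 ± 0.07 and 0.48 ± 0.06.

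Genes that fell with IL-10 in Th17 only were led by Ggt1, Ncmap, Gpr83, Mndal, Pydc3, Sema4a, Samd9l and Gbp8. Gpr83 (chr9:14859880-14870789), a receptor known from regulatory T cells, had 122, 111 and 116 CPM in Th17 negative and 10.9, 10.9 and 6.17 in Th17 positive libraries, and 24.7, 27.2 and 29.2 (negative) and 27.3, 30.8 and 23.4 (positive) in pTh17. The Th17 negative libraries were the highest group, the Th17 positive the lowest, and the pTh17 compartments overlapped. Its changes of -3.64 ± 0.14 and 0.01 ± 0.14 differed by -3.65 ± 0.19 (edgeR adjusted p 4.43e-18). Ggt1, an enzyme of glutathione breakdown, fell from 38.2, 38.8 and 43.3 to 3.01, 2.33 and 1.59 CPM in Th17, and in pTh17 it was 24.3, 30.7 and 32.1 (negative) and 24.6, 32.2 and 24.2 (positive). Sema4a, a semaphorin, fell from 58.6, 58.5 and 61 to 3.88, 7.19 and 7.01 and was 66, 71.2 and 68.5 (negative) and 75.2, 77.3 and 74.1 (positive) in pTh17. Mndal, Pydc3, Samd9l and Gbp8, all of interferon-inducible families, changed by -3.71 to -3.23 in Th17 and by -0.19 to 0.07 in pTh17.

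Interferon-stimulated genes fell with IL-10 in Th17. Of 25 tested, 20 fell and 1 rose in Th17 (median -1.69), whereas 7 fell and 1 rose in pTh17 (median -0.27), and 18 had a lower and 2 a higher difference. Trim30a, an interferon-induced regulator, had 134, 139.9 and 145 CPM in Th17 negative and 37.5, 30.1 and 38.8 in Th17 positive libraries, and 78.9, 81 and 73.2 (negative) and 64, 59.2 and 56 (positive) in pTh17. It fell in both cultures without overlap, with changes of -1.98 ± 0.08 and -0.38 ± 0.08, and the difference was -1.60 ± 0.11 (adjusted p 1.14e-14). Irf7, which amplifies the interferon response, changed by -2.50 ± 0.17 in Th17 and -0.43 ± 0.18 in pTh17, and Zbp1, a sensor of nucleic acids, by -1.37 ± 0.10 and -0.36 ± 0.09. Bst2 (tetherin) was the 1 that rose in Th17, from 11.5, 7.75 and 11.6 to 23.4, 26.5 and 23.2 CPM. Isg20 is described above. The Th17 IL-10 positive cells were the low group of this list, with a median of -1.44 against pTh17 positive cells, and the negative cells of the cultures differed by 0.23.

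The promoter of Trim30a, which fell in both cultures, is shown. Of the genes of this list whose promoters hold the element below, Trim30a had the smallest edgeR p of the difference. The element is thus present by selection. Capitals mark the interferon-stimulated response element, searched as GAAA, any 2 bases and GAAA on both strands, in the 250 bases before the start (chr7:104465194-104465443 of GRCm38.p6, minus strand, RefSeq).
Trim30a: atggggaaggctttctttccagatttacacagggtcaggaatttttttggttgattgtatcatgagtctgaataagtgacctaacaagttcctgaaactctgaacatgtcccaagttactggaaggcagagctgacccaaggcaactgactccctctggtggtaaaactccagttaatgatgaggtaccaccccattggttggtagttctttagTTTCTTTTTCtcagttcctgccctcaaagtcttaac
This element stood in 9 of the 17 promoters of the list with a sequence (52.9%) and in 2.71% of the 9365 promoters. Among the 9 was Bst2, which rose in Th17, with 2 matches against 1 in Trim30a.

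TGF-beta was added to the Th17 and not to the pTh17 culture. Of 16 tested genes of its pathway, 8 fell and 3 rose in Th17, 2 fell and 0 rose in pTh17, and 9 had a lower and 3 a higher difference (median -0.56). In the other cultures of the study, which also received no TGF-beta, 10 fell and 1 rose in Tr1 (IL-27). In Th1 (IL-12) 7 fell and 2 rose, and in Th2 (IL-4) 3 fell and 2 rose. A link of these changes to the added TGF-beta was not tested. Smad7, a feedback inhibitor, fell from 41.4, 46.2 and 43.5 to 14.9, 13.5 and 15.5 CPM in Th17 and was 11.7, 11.3 and 11.6 (negative) and 9.52, 7.82 and 10.5 (positive) in pTh17. The changes differed by -1.26 ± 0.19 (adjusted p 1.22e-06). Smad4, the shared transducer, changed by -0.96 ± 0.15 in Th17 and 0.25 ± 0.16 in pTh17, and the receptor chain Tgfbr2 by -1.15 ± 0.10 and -0.44 ± 0.11. All 8 Gimap genes, GTPases known for lymphocyte survival, fell in Th17 and 2 fell in pTh17, and all 8 differed (median -0.64). Gimap8, for example, changed by -1.08 ± 0.08 and 0.02 ± 0.08. Of 9 regulatory T cell genes, 4 had a lower and 2 a higher difference (median -1.48). Folr4, a folate receptor family member of regulatory T cells, fell in both, with changes of -2.73 ± 0.07 and -0.50 ± 0.06. Nrp1 (neuropilin 1) fell in Th17 (-1.64 ± 0.16) and had a change of 0.50 ± 0.23 in pTh17.

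Genes of naive and memory-like cells fell in both cultures. Of 22 tested, 17 fell in Th17 and 16 in pTh17, with medians of -1.17 and -0.78, and the differences went both ways, 7 higher and 10 lower. Tcf7, a factor of stem-like T cells, fell more in pTh17, from 607, 699 and 639 to 167, 166 and 186 CPM against 2136, 2224 and 2245 to 1033, 925 and 989 in Th17, a difference of 0.74 ± 0.09. Cxcr6, a homing receptor of tissue-resident cells, rose more in pTh17, from 5.66, 5.60 and 2.71 to 67, 48.6 and 48.3 CPM against 4.59, 3.50 and 5.57 to 12.9, 11.3 and 8.60 in Th17, a difference of -2.30 ± 0.32. Ccr4, another homing receptor, rose in Th17 (2.36 ± 0.13) and had a change of -0.30 ± 0.11 in pTh17. Among Th1 genes, Tbx21, which encodes the factor T-bet, fell in Th17 (-1.29 ± 0.32, at most 5.47 CPM) and had a change of 0.18 ± 0.12 in pTh17, where every library had at least 64.1 CPM.

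The other lists showed mixed directions, and over all genes tested 23.3% had a higher and 19.9% a lower difference. Of 22 cytokine genes, 10 had a higher and 2 a lower difference. The lower were Csf1 and Tnfsf8, and Il2 was among the higher (3.10 ± 0.57, at most 9.18 CPM). Of 16 Th1 genes, 3 were higher and 6 lower, of 14 chemokine receptors 5 and 2, of 8 chemokines 1 and 2, and of 12 Th2 genes 2 and 2. Of 15 genes of the pathogenic Th17 signature, 3 were higher and 3 lower. In level, 13 of the 15 were higher in pTh17 than in Th17 among IL-10 positive cells, and 13 were among IL-10 negative cells. Of 20 immediate early and AP-1 genes 2 were higher and 5 lower, of 18 T cell receptor and costimulation genes 6 and 5 (Cd5, an inhibitor of receptor signals, fell in Th17 with -0.42 ± 0.06 and rose in pTh17 with 0.18 ± 0.06), of 12 stress genes 6 and 1, and of 7 metallothionein and zinc transport genes 3 and 0. Of 5 genes of the non-pathogenic signature 1 was higher and 2 lower.

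The libraries of the other cultures gave a further comparison. They entered none of the contrasts that set the classes, but they shared the filter, the scaling and the estimate of spread. In the fit of the 12 libraries alone 11850 genes were tested. The Th1 (IL-12), Th2 (IL-4) and Tr1 (IL-27) cultures had their own IL-10 negative controls. Of the 177 genes lower in Th17 and higher in pTh17, 106 (59.9%) rose with IL-10 in Th1 and 15 (8.47%) fell, beside 23.5% and 20.4% of all genes. In Th2, 35.6% rose and 11.3% fell, beside 12.3% and 9.49%. Of the 188 genes higher in Th17 and lower in pTh17, 94 (50.0%) fell in Th1 and 35 (18.6%) rose, and 35.1% fell and 7.98% rose in Th2. In both classes the direction of the larger share in Th1 and Th2 was that of pTh17. In Tr1 the shares were more even, with 30.5% up and 20.9% down of the 177, and 23.9% up and 19.7% down of the 188, beside 20.5% and 14.2% of all genes.

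Single genes show both patterns. Prf1 rose with IL-10 by 2.53 in Th1, 1.85 in Th2 and 1.87 in Tr1, so that Th17 was the 1 culture of 5 in which it fell. Maf rose by 1.58, 0.95 and 1.52 in these 3 cultures. Bach2, which rose in Th17, fell in the other 4, with -1.66 ± 0.07 in Th1, -1.62 ± 0.07 in Th2 and -0.34 ± 0.07 in Tr1. Il21 was the reverse case, since it rose by 1.48, 1.58 and 1.60 and fell in pTh17. Ahr did not pass in Th1, Th2 or Tr1, with changes of -0.16 ± 0.38, 0.35 ± 0.33 and -0.37 ± 0.55. Genes of the Th17-only classes also moved elsewhere. Of the 2023 that rose, 42.2% rose in Th1, 34.8% in Tr1 and 18.3% in Th2, and of the 1738 that fell, 41.5% fell in Th1 and 31.8% in Tr1. The words Th17 only thus hold against pTh17 and not against the other cultures.

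**Figure D5:**
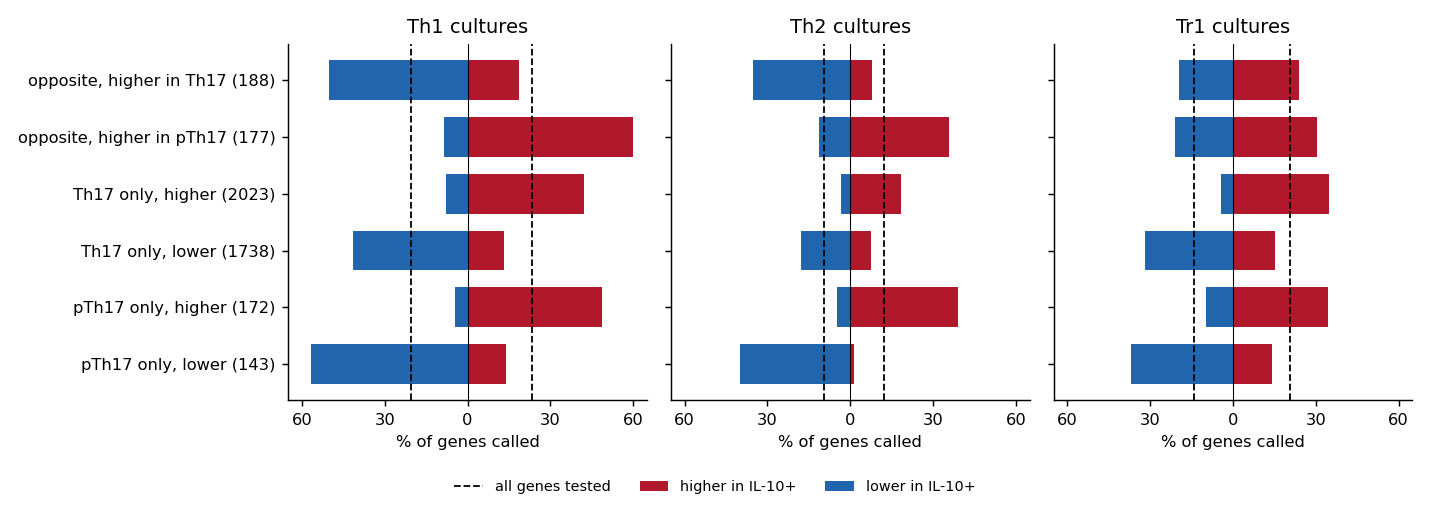
Share of the genes of 6 classes that rose (red, right) or fell (blue, left) with IL-10 in the Th1, Th2 and Tr1 cultures, with the share of all 12611 genes as dashed lines and the number of genes in brackets. Genes lower in Th17 and higher in pTh17 rose in Th1 at 59.9% and fell at 8.47%.

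The compartments contributed unequally to the 5449 genes. The cultures differed among IL-10 negative cells only for 1608 genes, among positive cells only for 1180, in both for 2564 and in neither for 97. The culture difference was the larger in size among IL-10 negative cells for 3252 and among positive cells for 2197. Over all genes tested, 7564 (60.0%) differed between Th17 and pTh17 among negative cells, with 28.9% higher and 31.1% lower in Th17, and 7151 (56.7%) among positive cells, with 28.9% higher and 27.8% lower.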

How the data were processed

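RNA was measured in bulk from 2000 sorted cells a library with an adaptation of SMART-Seq2, per the labels' protocols. SMART-Seq2 marks neither strand nor single molecules, so reads of overlapping genes cannot be told apart. The authors deposited RSEM expected counts per gene on mm10, per the file headers and the submitters' processing notes, and no source used here gives the RSEM version or the aligner. Expected counts were rounded. Of 23420 genes, 12611 passed edgeR's filterByExpr. One quasi-likelihood fit (edgeR 4.0.16, R 4.3.3, TMM scaling, a mean for each group) covered all 30 libraries, which share the estimate of spread. The difference of differences and each culture's IL-10 difference were contrasts of it, with Benjamini-Hochberg adjustment over all 12611 genes and a threshold of 0.05. The standard error is the log2 fold change divided by the root of its F statistic, so that of a difference need not combine from its parts. The method was tested on simulated data. Depth, from 5695832 counts, and 3 libraries a group limit the precision. Intervals are at 95%.

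Named genes were those with a group mean of at least 5 CPM, no overlap of compartments in the called cultures, and the largest differences in each class, up to 8 a class, plus, in each gene list, up to 4 members with the smallest p of the difference, and every Il10 regulator. The members and lists were chosen with earlier results of these data known. Named after their values were seen were Cyp1b1, Nqo1, Serpinb9, Ifng, Il22, Ccl3, Havcr2, Gzmb, Gzmc, Ccl20, Csf1, Odc1, Cxcr3, Hk2, Gpi1, Pfkp, Pdk1, Rora, Bst2, Tcf7, Cd5, Tnfsf8 and Il2. Promoters came from RefSeq (GRCm38.p6), which matched 9365 of 12611 genes. Alternatives were other scalings, no filter, DESeq2 1.42.0, the 12 libraries alone, thinned counts, a replicate block and leaving out each library. Genes at 0 in a group are given as CPM with no fold. Some genes of the lists and classes are counted and not reported by name.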

Additional observations from a re-analysis of the deposited data

Results flagged for a closer look

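The IL-10 difference itself differed between Th17 and pTh17 for 5449 of 12611 genes by the difference of differences in edgeR. For 188 genes it was called in both cultures with opposite signs and higher in Th17, and for 177 with opposite signs and higher in pTh17.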

How the results depend on the processing

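The count of genes with a difference of differences was 5471 with size factors by the median of ratios, 5539 with upper-quartile scaling, 5188 with no filter, 5490 with DESeq2, 5467 in a fit of the 12 libraries and 5113 with thinned counts, against 5449. Upper-quartile scaling turned the balance of directions, with 47.6% of calls higher in Th17 against 54% in the reported fit. No gene was called with the other sign in any of these, nor without any single library, where the count ran from 4924 to 5345. Of 168 named genes, 158 were called, and 139 kept their call and direction in every alternative in which they were tested. Not all were tested in the fit of the 12 libraries alone and with thinned counts. At a minimum of 2-fold, 2110 genes remained. The genes lower in pTh17 only numbered 93 to 149 when 1 library was left out, with 93 without pTh17 negative replicate 15, against 143. Tmem254c ran from -1.75 to 11.1 when 1 library was left out, with the reversal without pTh17 negative replicate 13, and the cause was not tested.

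Whether the numbers in the titles pair the samples could not be settled, and the reported fit used no pairing. Deviations of same-numbered libraries correlated at -0.0924, -0.0943 and -0.0255 in Th17 and at 0.0326, 0.115 and 0.0592 in pTh17. Those of libraries with different numbers correlated at 0.00255 to 0.0929 in Th17 and at -0.132 to 0.0645 in pTh17. With a replicate block the count was 5398. For the 31 genes with at most 3 counts in Th17, of which 2 passed, counts that low in Th17 limit the comparison.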
